A study of Mus musculus with 6 samples.

Results

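A set of 9 Hedgehog pathway genes was followed across fresh and cultured mouse dental mesenchymal cells (mDMCs): the pathway targets *Gli1*, *Ptch1* and *Hhip*, the signal transducers *Smo*, *Gli2* and *Gli3*, and the co-receptors *Gas1*, *Boc* and *Cdon*. They were taken by name from the tables of expression values, and 8 of these 9 genes, among 11386 genes in all, were measured; *Hhip* is not analysed here. The mDMCs came from molar tooth germs of ICR mouse embryos at embryonic day 14.5. Dispase was used on the germs to ease separation from dental epithelium, and markers of epithelium were still measured in P0 (below). RNA was taken from fresh cells (P0) and from the remaining cells of the isolation, grown in serum-containing medium to the first (P1) or the second passage (P2), with 2 libraries per passage. No gene was altered and no factor was added in these 6 libraries. How many embryos or litters were pooled, and whether the 2 libraries of a passage were separate cultures, is not stated, so p-values measure only the spread between these libraries, which may be technical.

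Hedgehog signaling runs from a secreted ligand to the Gli transcription factors. Without ligand, the receptor Ptch1 keeps the membrane protein Smo inactive and Gli3, with part of Gli2, is cut to a repressor; ligand, bound together with the co-receptors Gas1, Boc and Cdon, relieves this block and Gli2 and Gli3 act as activators. *Gli1*, *Ptch1* and *Hhip* are themselves switched on by the pathway, so their RNA is a common readout of it, whereas Smo, Gli2, Gli3 and the co-receptors carry or receive the signal. In the tooth germ the ligand Shh is made by the dental epithelium and the enamel knot, and the mesenchyme below responds to it.

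In P1 the 2 measured targets *Gli1* and *Ptch1* fell to 0.254% and 6.09% of their mean in fresh cells and *Gli2* fell to 38.0%, whereas *Smo*, *Gli3*, *Gas1*, *Boc* and *Cdon* did not pass the threshold for a call. Calls rest on limma's moderated test over all genes, with a change of at least 2-fold and a p under 0.05 after Benjamini-Hochberg adjustment. Among the 8 members, 3 were called lower in P1 and 3 in P2 (*Gli1*, *Ptch1* and *Gli2* in both), against 12% of all 11386 genes called lower in P1 and 14.4% in P2. None was called higher, against 12.2% of all genes in P1 and 14% in P2. These calls include *Gli1*, which met the minimum of the tables (a value above 100 in at least 2 libraries) through P0 alone and so had to be lower in culture; each of the other 7 members had at least 2 cultured libraries above that value. With no fold threshold, 5 members were lower in P1 and in P2, the others being *Smo* and *Gli3*, against 29.1% and 32.1% of all genes. Comparisons of P1 and of P2 with P0 share the P0 libraries. The P1 and P0 libraries did not overlap for 7 of the 8 members, against 82.5% of all genes. For P2 and P0 this held for 8 members and 84.9% of all genes, so a lack of overlap with P0 was the rule in these tables.

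Levels are given as the normalized value of the tables, with both library values of each passage. This value is not adjusted for gene length, so levels are compared between passages and not between genes. For log2 fold changes each value was scaled to a passage total of 1000000, which makes 1 scaled unit 18.7 normalized units in each passage, and the difference in log2(scaled value + 1) was taken. They understate the change of genes with low values. Over all genes the median log2 fold change was 0.02 in P1 and 0.01 in P2, and the lower and upper quartiles lay at -0.50 and 0.51 in P1 and at -0.58 and 0.56 in P2.

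Markers of several cell types moved in the same comparisons, and their summed values are given as the sum of the lower and of the higher library values. All 9 endothelial markers were called lower in P1 and in P2, their summed value lying between 7745 and 8444 in P0, between 80 and 184 in P1 and between 50 and 119 in P2, with *Tie1*, *Cldn5* and *Robo4* at 0 in all libraries of P1 and P2. Of 7 measured dental epithelium markers out of 13 listed, 6 were called lower in both passages, with *Krt15* at 0 in culture, and *Perp* was called higher. The epithelial sum lay between 1477 and 3039 in P0, 1107 and 2046 in P1, and 1600 and 2148 in P2, most of it *Perp* in culture, at a mean of 1498.5 and 1775. All 9 measured red cell markers were called lower as well, from a sum of at least 187281 in P0 to at most 142 in culture, as were 5 of 5 measured osteoblast markers. The osteoblast markers include *Runx2* and *Sp7*, whose inhibition the paper proposes as part of the lost odontogenic potential of mDMCs. These genes thus need not mark another cell type. Of 3 measured Schwann cell markers, summing to at least 1976 in P0 and to at most 111 in culture, 2 were called lower in P1 and 3 in P2. Like *Gli1*, all 9 endothelial, all 9 red cell and all 3 Schwann cell markers, the 6 epithelial markers that were lower and 3 of the osteoblast ones met the minimum of the tables through P0 alone. The minimum thus fixed the direction of these markers, so only their levels are informative. It did not fix the call itself, as *Fabp7* of Schwann cells, at -0.81 in P1, was not called there. Other markers were called higher, as *Acan* of cartilage at 3.07 in P1 and 2.69 in P2 and *Lyz2* of macrophages at 2.05 in P2, while 2 of the 4 measured macrophage markers and *Col2a1* of cartilage were called lower in both passages. The 12 markers of dental mesenchyme were all measured in every passage, at a sum between 63309 and 69011 in P0, 39334 and 44837 in P1, and 33272 and 38271 in P2, with 7 called lower and none called higher in either passage. The part of any of these cell types in the results below was not tested, and in bulk RNA fewer cells of a type and less RNA per cell cannot be told apart.

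*Gli1* (ENSMUSG00000025407), a zinc finger transcription factor that acts as an activator of Hedgehog targets, lies on the minus strand of chromosome 10 from 127329889 to 127341589 (mm10). Its normalized values were 1135 and 1223 in P0, 2 and 4 in P1, and 0 and 2 in P2. Both fresh libraries were thus high and all 4 cultured ones at the bottom of the scale, with P1 and P2 overlapping. The mean value was 0.254% of that in P0 in P1 and 0.0848% in P2, and since the cultured values are next to 0 these shares are not exact. The fall was called in both passages, with a log2 fold change of -5.79 ± 0.17 (SE, limma adjusted p = 1.66e-05) for P1 and -5.93 ± 0.17 (adjusted p = 1.17e-05) for P2. In order of log2 fold change it was number 14 from the bottom of 11386 genes in P1 and number 16 in P2. As *Gli1* met the minimum of the tables through P0 alone, its direction was fixed in advance. With cultured values next to 0, its rank and fold change are set mainly by the P0 level and the pseudocount. At a pseudocount of 0.1 in place of 1 the log2 fold change of *Gli1* was -7.95 in P1 and -8.78 in P2. In the GENCODE annotation the gene overlaps *Arhgap9* and an antisense transcript on the opposite strand, and whether reads were counted by strand is not given in the sources used here.

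*Ptch1* (ENSMUSG00000021466), the receptor that holds Smo in check and a direct target of the pathway, lies on the minus strand of chromosome 13 from 63511533 to 63565520. In normalized values, *Ptch1* stood at 1646 and 1886 in P0, 102 and 113 in P1, and 75 and 90 in P2. No library of one passage overlapped with any of another, so that P0 was highest and P2 lowest. The P1 mean was 6.09% of the P0 mean, between 5.41% and 6.87% for single libraries, and the P2 mean was 4.67%. *Ptch1* was called lower with a log2 fold change of -3.82 ± 0.14 (SE, adjusted p = 2.80e-05) for P1 and -4.14 ± 0.14 (adjusted p = 1.59e-05) for P2. Unlike *Gli1*, *Ptch1* did not come next to 0 in any of the 4 cultured libraries. Its P1 values lay just above the minimum of 100, however, and its P2 values under it.

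**Figure D1:**
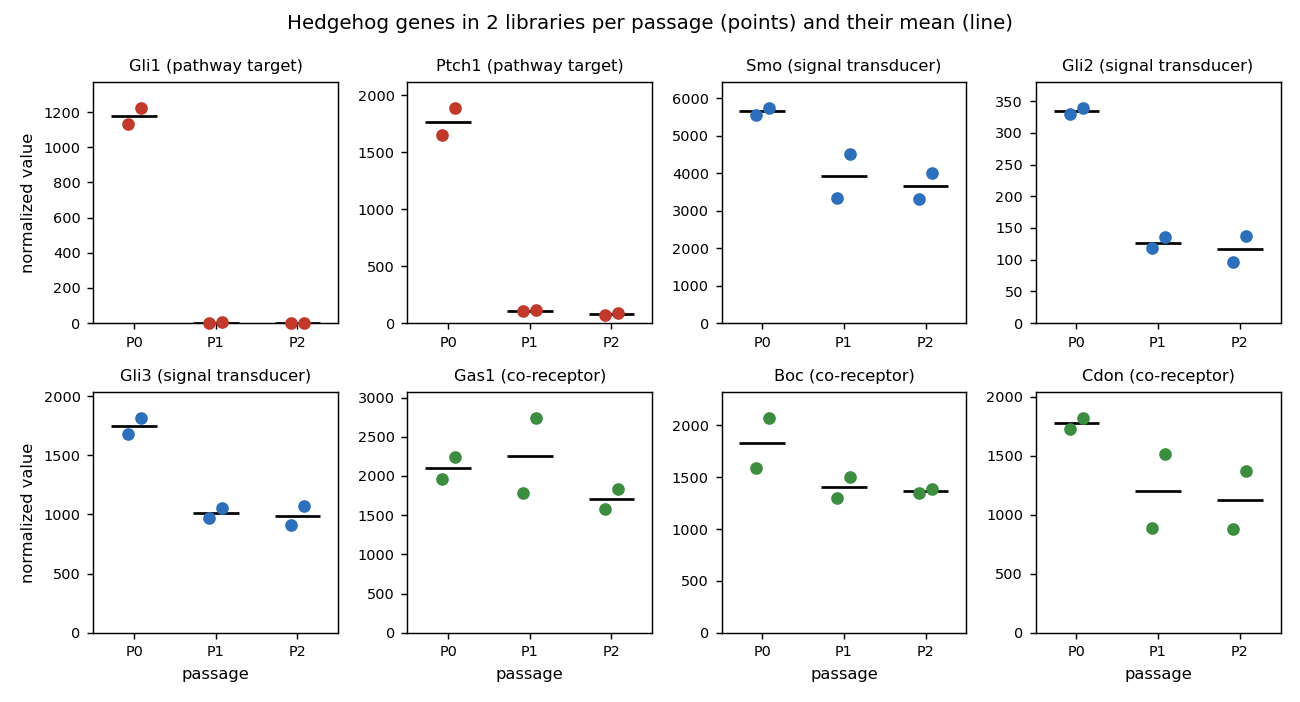
Normalized value (vertical axes, each from 0) of the 8 measured members in P0, P1 and P2. Points are the 2 libraries of a passage and lines their mean; *Gli1* and *Ptch1* drop to 0.254% and 6.09% of their P0 mean in P1, while *Gas1* in P1 overlaps with P0.

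*Gli2* (ENSMUSG00000048402), the main activator among the Gli factors, lies on the minus strand of chromosome 1 from 118834132 to 119053619. Its normalized values were 329 and 339 in P0, 118 and 136 in P1, and 96 and 137 in P2. The fresh libraries lay above all cultured ones, and those of P1 fell inside the range of P2. The decrease of *Gli2* was called at a log2 fold change of -1.28 ± 0.18 (SE, adjusted p = 0.00193) for P1 and -1.40 ± 0.18 (adjusted p = 0.00107) for P2. The mean in P1 was 38.0% and that in P2 34.9% of the P0 mean.

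*Gli3* (ENSMUSG00000021318), which acts mainly as a repressor when no ligand is present, lies on the plus strand of chromosome 13 from 15463235 to 15715091. The *Gli3* values were 1682 and 1816 in P0, 969 and 1050 in P1, and 908 and 1068 in P2. All 4 cultured libraries lay below both fresh ones, at 57.7% of the P0 mean in P1 and 56.5% in P2. The log2 fold change was -0.78 in P1 (standard error 0.12, adjusted p = 0.00213) and -0.82 in P2 (standard error 0.12, adjusted p = 0.00145). Both passed the adjusted p but were under 2-fold, so *Gli3* was not called.

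*Smo* (ENSMUSG00000001761), the membrane protein that passes the signal on into the cell, lies on the plus strand of chromosome 6 from 29735694 to 29761365. *Smo* had normalized values of 5558 and 5734 in P0, 3338 and 4502 in P1, and 3314 and 3990 in P2. The fresh libraries again lay above the cultured ones, which overlapped with each other. The log2 fold change of *Smo* was -0.54 in P1 (standard error 0.16, adjusted p = 0.0309) and -0.63 in P2 (standard error 0.16, adjusted p = 0.0161), also under 2-fold. The P1 mean was 69.4% and the P2 mean 64.7% of the P0 mean, and with 1 value left out at a time the difference in P1 ran from -0.75 to -0.33.

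None of the 3 co-receptors passed the adjusted p in P1 or in P2. *Gas1* (ENSMUSG00000052957), a membrane-anchored protein that binds Shh, is a single-exon gene on the minus strand of chromosome 13 from 60174405 to 60177365. Its normalized values were 1961 and 2246 in P0, 1778 and 2742 in P1, and 1576 and 1836 in P2. P0 lay inside the range of P1 and above P2. The log2 fold change was 0.07 in P1 (95% interval -0.45 to 0.59, adjusted p = 0.784) and -0.30 in P2 (95% interval -0.82 to 0.22, adjusted p = 0.256). With 1 of the 4 values left out at a time the difference in P1 ran from -0.24 to 0.38, so that its direction depended on single libraries.

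*Boc* (ENSMUSG00000022687), a cell surface protein of the immunoglobulin family, lies on the minus strand of chromosome 16 from 44485049 to 44558897. The normalized values of *Boc* were 1587 and 2072 in P0, 1297 and 1506 in P1, and 1348 and 1390 in P2. The cultured libraries lay below the fresh ones, though the lower P0 library was closer to P1 than to the other P0 library. The log2 fold change was -0.37 in P1 (95% interval -0.74 to -0.01, adjusted p = 0.0751) and -0.40 in P2 (95% interval -0.77 to -0.03, adjusted p = 0.0562). With 1 value left out at a time the difference of *Boc* ran from -0.56 to -0.18 in P1 and from -0.59 to -0.21 in P2.

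*Cdon* (ENSMUSG00000038119), a close relative of Boc, is listed on the plus strand of chromosome 9 from 35421128 to 35455365. Its normalized values were 1726 and 1822 in P0, 886 and 1517 in P1, and 880 and 1370 in P2. Both cultured pairs were spread far more widely than the fresh pair, and all 4 values lay below P0. The log2 fold change was -0.60 in P1 (95% interval -1.33 to 0.12, adjusted p = 0.126) and -0.68 in P2 (95% interval -1.41 to 0.04, adjusted p = 0.0874), so a fall of more than 2-fold lay within both intervals. With 1 value left out at a time the difference of *Cdon* ran from -0.99 to -0.22 in P1 and from -0.995 to -0.368 in P2. The transcript listed for *Cdon* has 5 exons and 652 bases and ends at 35455365, whereas the gene reaches to 35507652 in GENCODE. That of *Gli3* has 2004 bases and also stops short of the gene's end. Whether the values are sums over all transcripts of a gene is not given in the sources used here.

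The 2 measured targets had a median log2 fold change of -4.80 in P1 and -5.03 in P2, a value that rests in part on *Gli1*, whose direction was fixed by the minimum of the tables and whose size depends on the pseudocount. *Ptch1* alone, which met the minimum also in P1, had -3.82 and -4.14. The median was -0.78 and -0.82 for the 3 transducers and -0.37 and -0.40 for the 3 co-receptors. In P1 the 95% interval of *Gli1* (-6.21 to -5.36) and that of *Ptch1* (-4.17 to -3.47) overlapped neither with each other nor with that of *Gli2* (-1.73 to -0.83), the lowest of the other 6 members. The same held in P2, where *Gli1* had -6.35 to -5.50, *Ptch1* had -4.49 to -3.79 and *Gli2* had -1.85 to -0.95. The intervals of *Gli1* hold for the pseudocount of 1 alone, so the size of its gap to other members depends on that choice. The difference between members was itself not tested, since the tables do not show which values of 2 genes come from the same library.

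**Figure D2:**
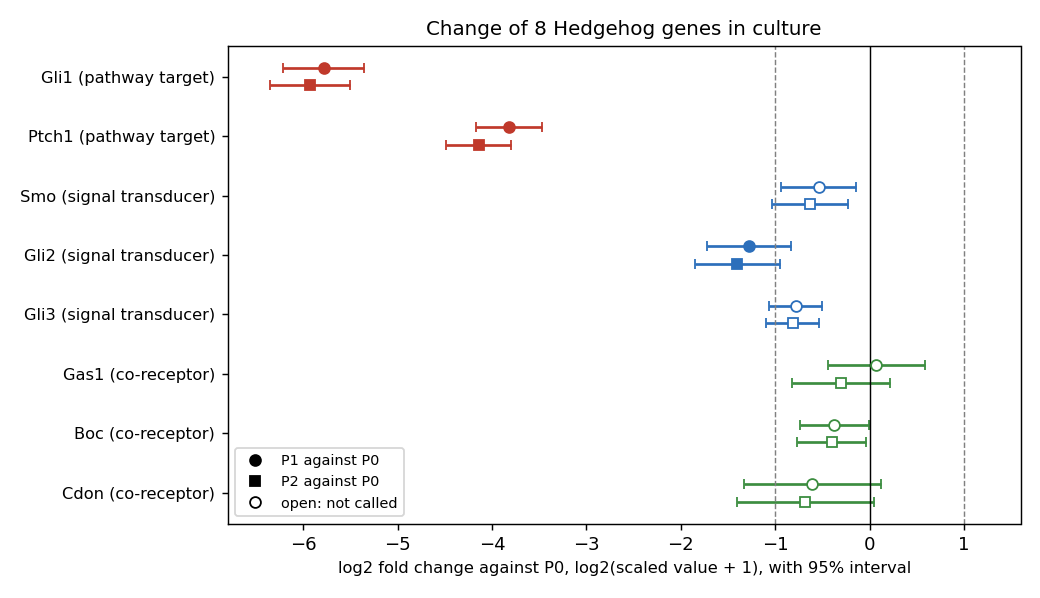
Log2 fold change against P0 (horizontal axis) of each member in P1 (circles) and P2 (squares) with its 95% interval. Filled symbols are called, open ones are not, and dashed lines mark 2-fold; *Gli1* and *Ptch1* lie far to the left of the 6 other members.

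Between the first and the second passage no member passed the test. All 8 log2 fold changes were below 0, against 49.0% of all genes, and ran from -0.37 for *Gas1* to -0.03 for *Boc*. Limma adjusted p-values lay between 0.390 and 0.961, and no member had an unadjusted p under 0.05. The members share the same libraries. The sign for *Smo*, *Gli2*, *Gli3*, *Boc* and *Cdon* depended on single values, *Cdon* running from -0.46 to 0.30 with 1 value left out at a time. Of all genes 0.0878% were called higher and 0.211% lower in this comparison, and 1630 of 11386 had an unadjusted limma p under 0.05. *Ptch1* had the lowest adjusted p, with a log2 fold change of -0.32 (95% interval -0.67 to 0.03). It was also the only member whose P1 and P2 libraries did not overlap, as was the case for 38.3% of all genes. The order of levels was P0, P1, P2 from high to low for 7 members and P1, P0, P2 for *Gas1*, and P1 and P2 did not differ beyond their spread in any of the tests.

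Promoter windows of the members were searched for the site bound by the Gli factors. RefSeq sequences (GRCm38.p6, the build of the tables) were matched for 7 of the 9 listed genes, 6 of them measured. *Gli1* and *Boc* had no matched sequence and were not searched. Shown are the 250 bases before the RefSeq start of a target that fell (*Ptch1*, chr13:63565736-63565985, minus strand), of a transducer that fell (*Gli2*, chr1:119053620-119053869, minus strand) and of one that was not called (*Smo*, chr6:29735247-29735496, plus strand), 5′ to 3′. Capitals mark the GC box GGGCGG on either strand.
Ptch1: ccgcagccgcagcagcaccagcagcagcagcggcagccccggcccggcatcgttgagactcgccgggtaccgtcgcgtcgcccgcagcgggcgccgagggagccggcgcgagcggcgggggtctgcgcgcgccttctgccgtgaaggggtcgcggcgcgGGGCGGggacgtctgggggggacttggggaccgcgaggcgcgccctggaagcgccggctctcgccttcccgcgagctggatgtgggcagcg
Gli2: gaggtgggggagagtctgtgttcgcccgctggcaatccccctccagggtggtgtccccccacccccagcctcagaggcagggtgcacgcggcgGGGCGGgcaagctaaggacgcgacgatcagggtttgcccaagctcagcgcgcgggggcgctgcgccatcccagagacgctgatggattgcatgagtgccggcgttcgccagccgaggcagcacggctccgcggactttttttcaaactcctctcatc
Smo: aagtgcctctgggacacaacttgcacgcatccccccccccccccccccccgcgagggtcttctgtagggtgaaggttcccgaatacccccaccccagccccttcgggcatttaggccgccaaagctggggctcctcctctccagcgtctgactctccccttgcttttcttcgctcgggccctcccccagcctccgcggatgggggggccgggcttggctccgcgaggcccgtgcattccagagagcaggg

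The Gli consensus GACCACCCA was searched on both strands and was found in none of the 7 windows, and in 0.225% of all 32851 windows of this length in the table. For so rare a match, its absence from 7 windows is uninformative. No match of the pair overlapped, since only the GC box was found. It was present in 5 of the 7 windows and in 32.7% of all windows. Both *Ptch1* and *Gli2* have 1 GC box here and *Smo* has none. Of the other uncalled members searched, *Gli3* has 2, *Gas1* has 1 and *Cdon* has none. The GC box was thus not limited to members called lower. The *Ptch1* window lies in an intron of longer *Ptch1* transcripts, which start farther upstream, and these starts were not searched. The RefSeq windows of *Cdon* (chr9:35451826-35452075) and *Gli3* (chr13:15463473-15463722) also lie downstream of the starts of the transcripts listed in the tables, at 35421128 and 15463235.

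Other genes of the pathway were counted from a list of 62, of which 50 were measured. In P1 8 of the 50 were called lower and 1 higher, which is 16.0% and 2.0%, and in P2 9 were called lower and 2 higher, which is 18.0% and 4.0%. The shares called lower are near those of all genes given above and the shares called higher are below the 12.2% and 14% of all genes, a difference that was not tested. The median log2 fold change of the 50 was -0.35 in P1 and -0.38 in P2. None of the 50 was called by limma between P1 and P2, where 5 had an unadjusted p under 0.05, against 1630 of all 11386 genes.

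Genes that make and release the ligand were divided. *Scube1*, a member of the Scube family of secreted proteins, had normalized values of 952 and 1018 in P0, 80 and 132 in P1, and 58 and 111 in P2. Its cultured libraries lay far below the fresh ones, with a called log2 fold change of -3.04 ± 0.30 (SE, adjusted p = 5.15e-04) for P1 and -3.33 ± 0.30 (adjusted p = 2.74e-04) for P2. *Disp1*, the membrane protein that lets the lipid-bearing ligand out of the cell, had 270 and 284 in P0, 482 and 490 in P1, and 578 and 583 in P2. *Disp1* rose by 1.02 in P2 (SE 0.10, adjusted p = 3.53e-04), whereas its difference of 0.77 in P1 (adjusted p = 0.00132) was under 2-fold. *Hhat*, the enzyme that attaches palmitate to the ligand, and *Scube3* did not pass the threshold. The ligands Shh, Ihh and Dhh are not analysed here.

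Among 10 measured regulators at the level of the receptors and Smo, 2 were called lower in P1 and 3 in P2. The shares of all genes called lower were 12% and 14.4%. With no fold threshold, 7 of the 10 were lower and 1 higher in P1, and 6 were lower and 1 higher in P2. Of all 11386 genes, 3318 were then lower and 3367 higher in P1, and 3652 lower and 3596 higher in P2. The median log2 fold change of the 10 was -0.78 in P1 and -0.77 in P2. *Arrb1* and *Arrb2*, the beta-arrestin genes, whose products bind activated Smo, had means of 1052 and 346 in P0. *Arrb1*, at 146 and 176 in P1 and 117 and 128 in P2, changed by -2.58 ± 0.13 (SE, adjusted p = 6.96e-05) and -2.92 ± 0.13 (adjusted p = 3.35e-05) on the log2 scale. For *Arrb2* the 2 passages gave -1.15 (adjusted p = 0.00117) and -1.37 (adjusted p = 4.56e-04). *Gpc3*, a glypican that competes with Ptch1 for the ligand, had 16752 and 17611 in P0, 8799 and 10076 in P1, and 6880 and 7861 in P2, and fell by 1.22 in P2 (standard error 0.11, adjusted p = 2.63e-04). *Evc*, *Evc2*, *Iqce*, *Efcab7*, *Gpr161* and *Adrbk1* were among those not called in either passage.

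Regulators of the Gli proteins and genes of ciliary transport, through which the signal passes in vertebrates, had no calls. Among all genes 12% were called lower and 12.2% higher in P1, and 14.4% lower and 14% higher in P2. None of the 16 measured Gli regulators passed limma's threshold in P1 or P2. An unadjusted limma p under 0.05 was found for 11 and 10 of them, against 7246 and 7710 of all 11386 genes. Log2 fold changes of the 16 regulators ran from -0.90 to 0.58 in P1 and from -0.88 to 0.62 in P2. The lowest was *Sufu*, which holds Gli proteins in the cytoplasm, at 506 and 542 in P0, 270 and 275 in P1, and 252 and 300 in P2, with a log2 fold change of -0.90 in P1 (adjusted p = 0.00179). *Spop*, an adaptor for the breakdown of Gli2 and Gli3, was the highest at 0.58 (adjusted p = 0.00358). With no fold threshold 7 of these 16 genes were lower and 2 higher in P1, and the same numbers held in P2. Among all 11386 genes, 3318 were then lower and 3367 higher in P1, and 3652 lower and 3596 higher in P2. The 8 ciliary transport genes, among them *Ift88* and *Kif3a*, lay between -0.72 and 0.25 in P1 and between -0.67 and 0.18 in P2. An unadjusted limma p under 0.05 was found for 4 and 5 of these 8, against the same 7246 and 7710 of all genes.

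Genes described as Hedgehog targets in other settings did not move as one. Of 12 measured, 5 were called lower and 1 higher in P1 and in P2. For all genes the shares were 12% lower and 12.2% higher in P1, and 14.4% lower and 14% higher in P2. *Mycn*, a proliferation-promoting transcription factor, had 363 and 427 in P0, 2 and 13 in P1, and 2 and 4 in P2, a log2 fold change of -4.01 ± 0.26 (SE, adjusted p = 1.28e-04) for P1 and -4.25 ± 0.26 (adjusted p = 7.77e-05) for P2. *Osr2*, which patterns the tooth rows, had 805 and 896 in P0, 90 and 184 in P1, and 63 and 80 in P2, with log2 fold changes of -2.55 and -3.27. Like *Gli1*, *Mycn* and *Osr2* met the minimum of the tables through P0 alone. The log2 fold changes for P1 and P2 were -2.43 and -2.82 for *Bcl2*, an inhibitor of apoptosis. They were -1.25 and -1.42 for the forkhead gene *Foxf1*, and -1.96 and -3.24 for *Sfrp2*, a secreted Wnt modulator. *Ccnd1*, the cyclin D1 gene, had 2266 and 2326 in P0, 6071 and 7845 in P1, and 5163 and 6424 in P2, which gave log2 fold changes of 1.58 ± 0.16 (SE, adjusted p = 5.26e-04) and 1.32 ± 0.16 (adjusted p = 7.58e-04). *Ccnd2*, *Foxf2*, *Osr1*, *Nr2f1*, *Nr2f2* and *Sfrp1* were not called. Most of these genes also answer to other pathways.

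**Figure D3:**
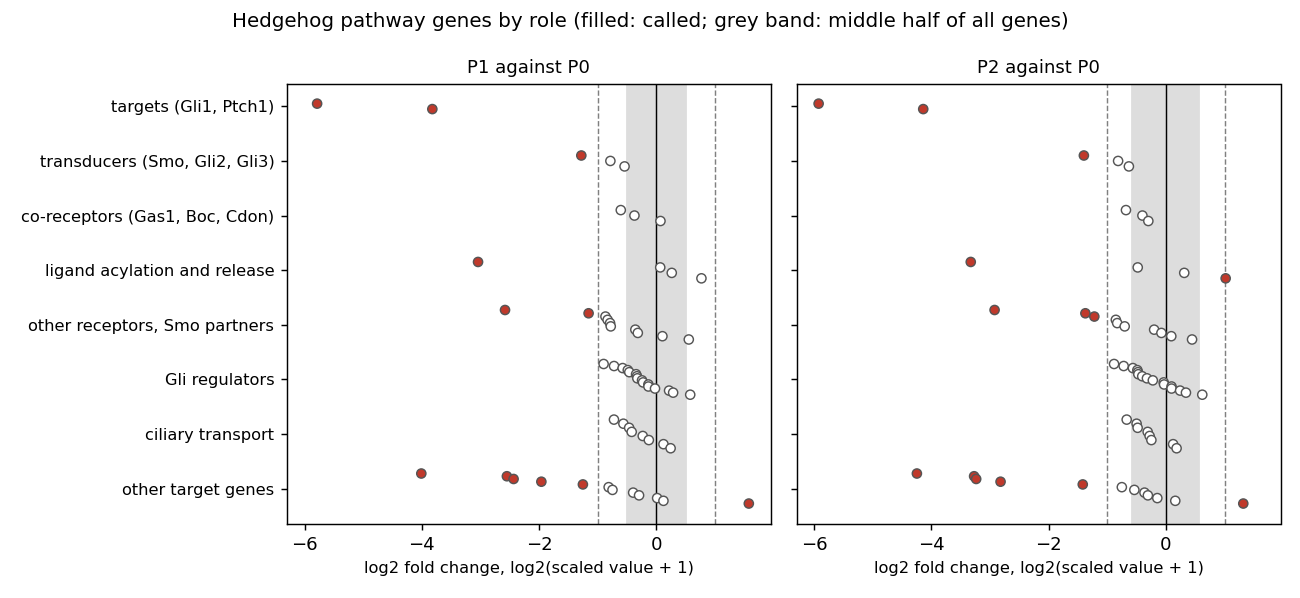
Log2 fold change (horizontal axes) of the measured Hedgehog genes in P1 and P2 against P0, 1 point per gene in rows by role. Filled points are called and the grey band runs from the lower to the upper quartile of all genes (-0.50 to 0.51 in P1); *Gli1* lies farthest left, *Mycn* among the other targets and *Ptch1* come next, and no Gli regulator or ciliary transport gene is filled.

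The genes whose pattern was nearest to each member were found by the distance between their pairs of log2 fold changes, P1 and P2 each against P0, among 10329 genes with at least 10 scaled units in their highest passage. For *Gli1* the nearest were *Tie1* (distance 0.10), *Pecam1* (0.11) and *Aplnr* (0.16), and only 6 of the 10329 lay within 0.5. *Tie1* and *Pecam1* are among the endothelial markers counted above. For genes next to 0 in culture, such as *Gli1*, *Tie1* and *Aplnr*, the log2 fold change is set by the level in P0 and the pseudocount, so the distance compares their means in P0 (1179, 1078.5 and 1091) more than a shared change. For *Ptch1* they were *Smpd3* (0.05), *Lrrtm1* (0.10) and *Nlgn3* (0.14), with 46 genes within 0.5. *Gli2* had 661 genes within 0.5 and *Gli3* 1675, with *Gabpb2* and *Szrd1* nearest. For *Smo* and the co-receptors 2147 to 2898 genes were that close, so their patterns were shared by many genes of the tables. The likeness rests on 2 differences from the same P0 libraries and is a description only.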

How the data were processed

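RNA of P0, P1 and P2 mDMCs was sequenced as 2 libraries per passage with the TruSeq kit. The authors mapped reads to mm10 transcripts (Ensembl v73) with bowtie, quantified them with RSEM (1.1.21 in the submitters' notes, another version in the paper) and normalized them with EDASeq. The deposited score is the authors' normalized value, as a mean and an error per passage. It is neither a raw count nor a CPM: each passage totals 1.87e+07 and the sorted values of P0 and P1 were equal at 80.1% of positions, so depth is unknown and a change shared by all genes would not be seen. Of the gene names, 18 had been turned into dates and were restored by gene ID. Mean plus and minus the error times the square root of 2 gave whole library values for all 11386 genes (tolerance 1e-06), without showing which library a value came from. Values scaled to a passage total of 1000000 were analysed as log2(value + 1) in R 4.3.3 with limma 3.58.1 (lmFit, eBayes with trend, 3 residual and 3.06 prior degrees of freedom) over all 6 libraries, and adjusted over all genes. The test was also tried on simulated data. An exact permutation test of 2 against 2 libraries cannot go below 0.333 (two-sided) and was not used. Python 3.11.15 (numpy 2.4.6, pandas 2.3.3, matplotlib 3.10.9) served for tables and plots. Members and lists were chosen with earlier results of these data known. Named were all members, every called gene of the other Hedgehog lists, and for each member up to 3 genes with the nearest pattern; uncalled genes of these lists, and markers at 0 or against their list, were named with their values known. The alternatives tried were the pseudocount, a filter, the scaling, the passages in the fit, the variance trend, the fold threshold and single library values. An entry of each table is not reported here. qRT-PCR and grafting are not analysed here.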

Additional observations from a re-analysis of the deposited data

How the results depend on the processing

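With no fold threshold 5 members were called in P1 and 5 in P2 in place of 3 each, *Smo* and *Gli3* being added. Under pseudocounts of 0.5 and 0.1, a filter of 10 scaled units in 2 libraries, median-ratio and unweighted TMM scaling, a fit of only the 2 passages compared and a fit with no variance trend, the counts stayed at 3, 3 and 0 for P1 against P0, P2 against P0 and P2 against P1, and no member changed direction. For all genes the calls went from 2755 to 6685 (P1), from 3234 to 7248 (P2) and from 34 to 122 (P2 against P1) with no fold threshold, and the last from 34 to 0 with 4 libraries and to 2 with no trend. Leaving out 1 library value at a time, *Gli1* lay between -5.85 and -5.72 in P1, *Ptch1* between -3.92 and -3.72, *Gli2* between -1.37 and -1.19, *Gli3* between -0.84 and -0.73, *Smo* between -0.75 and -0.33, *Cdon* between -0.99 and -0.22, *Boc* between -0.56 and -0.18 and *Gas1* between -0.24 and 0.38. No paired analysis was possible because the tables give no value per numbered library. For the same reason no test without a given library could be run. In P2 the adjusted p of *Boc* ranged from 0.0487 (median-ratio scaling) to 0.0709 and that of *Cdon* from 0.0429 (only the 2 passages compared) to 0.101, so both lay near the threshold at under 2-fold. Depth is unknown, and 2 libraries per passage limit the precision.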
